A study of Homo sapiens with 4 samples.

Results

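The regions described here are the 500 with the highest and the 500 with the lowest interaction between 2 drugs, out of 42930 genomic regions that were called accessible in every library of the series and 122632 called in any. The cells were OPM-2, a human myeloma cell line of the t(4;14) type, and ATAC-seq reads mark where the transposase Tn5 could cut chromatin. Cells had been exposed for 72 h to 1 µM all-trans retinoic acid and 1 µM pomalidomide together (ATRA+POM), to 1 µM pomalidomide alone (POM), to 1 µM all-trans retinoic acid alone (ATRA), or to the vehicle DMSO. Each condition had 1 library of the same cell line, so differences could not be set against the spread between cultures, regions of the same library are not replicates, and p-values are left out. Within each library the regions were ranked by the authors' −log10 q at the summit, from 0 to 100. The interaction is (ATRA+POM minus POM) minus (ATRA minus DMSO), in percentile points. A positive value means that the step made by ATRA was higher in the presence of POM than in its absence, and equally that the step made by POM was higher in the presence of ATRA. All 4 libraries chose the members, so their ranks are given as a description with no test.

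ATRA is a ligand of the retinoic acid receptors, which bind DNA as dimers with retinoid X receptors and exchange corepressors for coactivators when the ligand binds. Pomalidomide binds cereblon, the substrate receptor of a ubiquitin ligase, and directs the Ikaros family factors IKZF1 and IKZF3 to degradation. In myeloma cells loss of these factors lowers IRF4 and MYC, on which plasma cell survival depends. An interaction at a region asks whether the combination left chromatin more or less accessible than the separate steps of both agents add up to.

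The libraries differed in depth. The median summit pileup over the shared regions, recovered from the deposited fold and p-value, was 41 reads after ATRA+POM, 23 after POM, 47 after ATRA and 55 in DMSO. The smallest pileup called in each list was 7, 4, 8 and 8 in the same order of libraries. Of 9 plasma cell markers, 6 had a summit within 1 kb of their start in every list (IRF4, PRDM1, XBP1, SDC1, CD38 and MZB1), whereas TNFRSF17, SLAMF7 and POU2AF1 had none in any. Markers of myeloid, epithelial and erythroid cells had none in any list, and of 3 T cell markers CD8A alone had one. Of the t(4;14) genes, NSD2 had a summit within 1 kb of its start in every list, and FGFR3 in every list but that of ATRA. Accessibility at a start site is not expression.

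Members that span a whole promoter window (250 bases before to 50 after a start site, RefSeq, GRCh38.p14) numbered 35 among the 500 highest and 27 among the 500 lowest. The strongest 3 of each direction are printed 5′ to 3′ on the strand of the gene, since they tie the interaction to named start sites. They lie at chr1:78620198-78620497 on the plus strand (IFI44L), chr11:64251280-64251579 on the plus strand (PLCB3), chr16:30096164-30096463 on the minus strand (YPEL3), chr1:17011879-17012178 on the minus strand (ATP13A2), chr10:102114953-102115252 on the minus strand (LDB1) and chr1:117605798-117606097 on the plus strand (TENT5C). Capitals mark, on either strand, the core of the interferon-stimulated response element (GAAA, any 2 bases, GAAA), GC boxes (GGGCGG) and CCAAT boxes (CCAAT).
IFI44L: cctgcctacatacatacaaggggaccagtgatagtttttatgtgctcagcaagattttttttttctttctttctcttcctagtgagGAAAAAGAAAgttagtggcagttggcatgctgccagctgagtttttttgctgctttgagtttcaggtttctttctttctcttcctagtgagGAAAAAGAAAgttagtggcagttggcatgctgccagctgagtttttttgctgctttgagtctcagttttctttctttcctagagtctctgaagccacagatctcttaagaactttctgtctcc
PLCB3: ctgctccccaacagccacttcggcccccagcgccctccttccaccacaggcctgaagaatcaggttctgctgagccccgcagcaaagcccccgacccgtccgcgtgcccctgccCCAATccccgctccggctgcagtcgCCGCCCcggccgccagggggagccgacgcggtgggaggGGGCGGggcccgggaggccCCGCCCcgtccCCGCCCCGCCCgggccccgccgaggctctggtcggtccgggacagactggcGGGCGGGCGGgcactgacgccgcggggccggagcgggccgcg
YPEL3: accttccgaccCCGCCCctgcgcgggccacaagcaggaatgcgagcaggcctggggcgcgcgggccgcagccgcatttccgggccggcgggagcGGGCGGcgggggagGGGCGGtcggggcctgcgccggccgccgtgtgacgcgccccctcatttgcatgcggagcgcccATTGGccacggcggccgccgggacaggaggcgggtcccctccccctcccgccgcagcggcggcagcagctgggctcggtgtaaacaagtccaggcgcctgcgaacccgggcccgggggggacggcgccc
ATP13A2: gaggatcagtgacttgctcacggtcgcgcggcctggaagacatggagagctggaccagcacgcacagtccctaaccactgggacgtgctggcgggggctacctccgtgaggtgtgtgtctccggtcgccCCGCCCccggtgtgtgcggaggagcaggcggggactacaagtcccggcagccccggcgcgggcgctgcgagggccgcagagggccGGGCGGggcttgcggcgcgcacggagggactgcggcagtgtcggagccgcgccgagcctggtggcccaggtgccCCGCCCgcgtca
LDB1: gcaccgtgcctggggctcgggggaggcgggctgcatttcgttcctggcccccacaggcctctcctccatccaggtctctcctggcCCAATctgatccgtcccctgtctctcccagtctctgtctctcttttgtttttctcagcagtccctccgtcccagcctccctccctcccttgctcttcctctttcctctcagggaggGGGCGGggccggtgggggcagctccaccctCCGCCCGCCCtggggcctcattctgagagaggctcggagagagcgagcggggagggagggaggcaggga
TENT5C: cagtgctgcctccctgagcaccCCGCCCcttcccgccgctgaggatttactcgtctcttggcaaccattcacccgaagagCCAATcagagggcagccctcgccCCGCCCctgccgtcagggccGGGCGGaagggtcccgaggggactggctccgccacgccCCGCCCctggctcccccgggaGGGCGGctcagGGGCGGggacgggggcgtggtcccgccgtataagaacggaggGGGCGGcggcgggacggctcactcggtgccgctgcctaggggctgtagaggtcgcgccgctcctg
The IFI44L window, with a GC content of 41%, held a pair of response element cores and no GC or CCAAT box. The other windows were GC-rich, from 67% in LDB1 to 79.3% in PLCB3, and held 3 to 7 GC boxes each. A match describes the letters and is not a bound site.

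Among the 500 highest regions the interaction ran from 41.2 to 86.8 percentile points, with a median of 46.4. Their median rank was 57.4 after ATRA+POM, 22.7 after POM, 23.6 after ATRA and 45.2 in DMSO. The medians after both single agents were the low ones, and that of DMSO was itself under the middle of the scale. These are separate medians, and single regions differed in which library was low or high. The strongest region lay 44.0 kb from ZFPM2, which encodes a cofactor of GATA transcription factors, at chromosome 8, 105273791 to 105274789. Its summit pileup was 36 reads after ATRA+POM, 8 after POM, 12 after ATRA and 42 in DMSO. On the scale of log2 pileup, centred on the median of each library, the interaction there was 2.92 with a counting SE of 0.74. The ranks were 50.9 after ATRA+POM, 9.03 after POM, 3.43 after ATRA and 48.3 in DMSO. Both single-agent libraries were thus low, and both others were near the middle of the scale.

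IFI44L, an interferon-induced gene, gave the highest interaction of any member over a promoter, 77.1 points, at chromosome 1, 78619726 to 78620660. This region, which holds the pair of response element cores printed above, ranked at 60.2 after ATRA+POM, 11.5 after POM, 25.5 after ATRA and 53.9 in DMSO. Pileups were 55, 14, 28 and 58 reads in these libraries. The combination was thus close to vehicle, and the departures were those of both single agents. POM was the lower by rank. Its 14 reads against 28 after ATRA follow the depth of these libraries, whose median pileups were 23 and 47. The pileups therefore do not set POM apart from ATRA. The other shared region of IFI44L had an interaction of -15.6, with ranks of 43.2 after ATRA+POM, 57.2 after POM, 38.1 after ATRA and 36.5 in DMSO.

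CIPC, whose product binds the circadian factor CLOCK, had a region 5.44 kb away (chromosome 14, 77092549 to 77093228) with an interaction of 73.4. Pileups were high enough there to be read with more certainty, at 116 reads after ATRA+POM, 37 after POM, 48 after ATRA and 101 in DMSO, and the log2 interaction was 1.66 ± 0.37 (counting SE). ATRA alone stood out at rank 14.5, against 84.4 after ATRA+POM, 56.2 after POM and 59.7 in DMSO. A region 19.7 kb from TBX19, a T-box transcription factor gene, had 63 reads after ATRA+POM, 17 after POM, 29 after ATRA and 56 in DMSO. SIRPD, of the signal regulatory protein family, held a region with 36, 13, 27 and 78 reads in these libraries, in which DMSO ranked highest.

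KLHL1, a kelch-like gene, and ERBB4, which encodes a receptor tyrosine kinase of the epidermal growth factor receptor family, each held a member far from a boundary. In KLHL1 the pileup was 41 reads after ATRA+POM, 7 after POM, 11 after ATRA and 21 in DMSO, and in ERBB4 it was 41, 11, 12 and 32. The remaining 3 of the 10 highest regions had no protein-coding gene within 100 kb. A region on chromosome 18 (69261242 to 69261926) is the clearest of these for the combination, with 74 reads after ATRA+POM, 15 after POM, 11 after ATRA and 23 in DMSO. On chromosome 18, 60648861 to 60649607, POM was the library that departed, with 6 reads against 45, 28 and 45 after ATRA+POM, after ATRA and in DMSO. The region at chromosome 14, 42149504 to 42150299, had 51 reads after ATRA+POM, 12 after POM, 16 after ATRA and 41 in DMSO.

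The 500 lowest regions ran from -78.8 to -42.0 percentile points, with a median of -47.2. Their median rank was 18.6 after ATRA+POM, 55.9 after POM, 47.9 after ATRA and 30.5 in DMSO, so POM and ATRA had the higher medians. The lowest interaction was in MAP3K8, which encodes a kinase that activates the MAP kinase cascade (chromosome 10, 30436161 to 30437797). Pileups there were 50 reads after ATRA+POM, 56 after POM, 110 after ATRA and 102 in DMSO, and the ranks were 11.4, 74.1, 49.0 and 32.9. Local background was high, at 15.8, 5.21, 30.6 and 31.6 reads, and the summits of the libraries lay up to 1150 bp apart, so the ranks do not all describe the same point. The log2 interaction was -1.33 ± 0.34.

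MAK, a kinase gene of male germ cells, had an interaction of -74.3 with 20 reads after ATRA+POM, 31 after POM, 49 after ATRA and 35 in DMSO. Each agent alone ranked above vehicle there, at 75.4 after POM and 63.5 after ATRA against 41.6 in DMSO, and the combination ranked below it, at 23.0. WWOX, an oxidoreductase gene that spans a common fragile site, showed the same order, with 19, 27, 35 and 24 reads. So did the region in HSD17B12, which encodes an enzyme of fatty acid elongation (12, 20, 30 and 25 reads). In RTN1, a reticulon gene of the endoplasmic reticulum, the combination ranked at 25.7, slightly above DMSO at 22.7, and POM at 71.2. NLRP12, a NOD-like receptor gene, had 11 reads after ATRA+POM, 20 after POM, 54 after ATRA and 42 in DMSO, and its summits also lay far apart, by 1053 bp. The rest of the 10 lowest regions lay inside RHOBTB1 and PDZRN3, 13.5 kb from CA13, a carbonic anhydrase gene, and on chromosome 8 (16831578 to 16832358) with no gene within 100 kb.

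**Figure D1:**
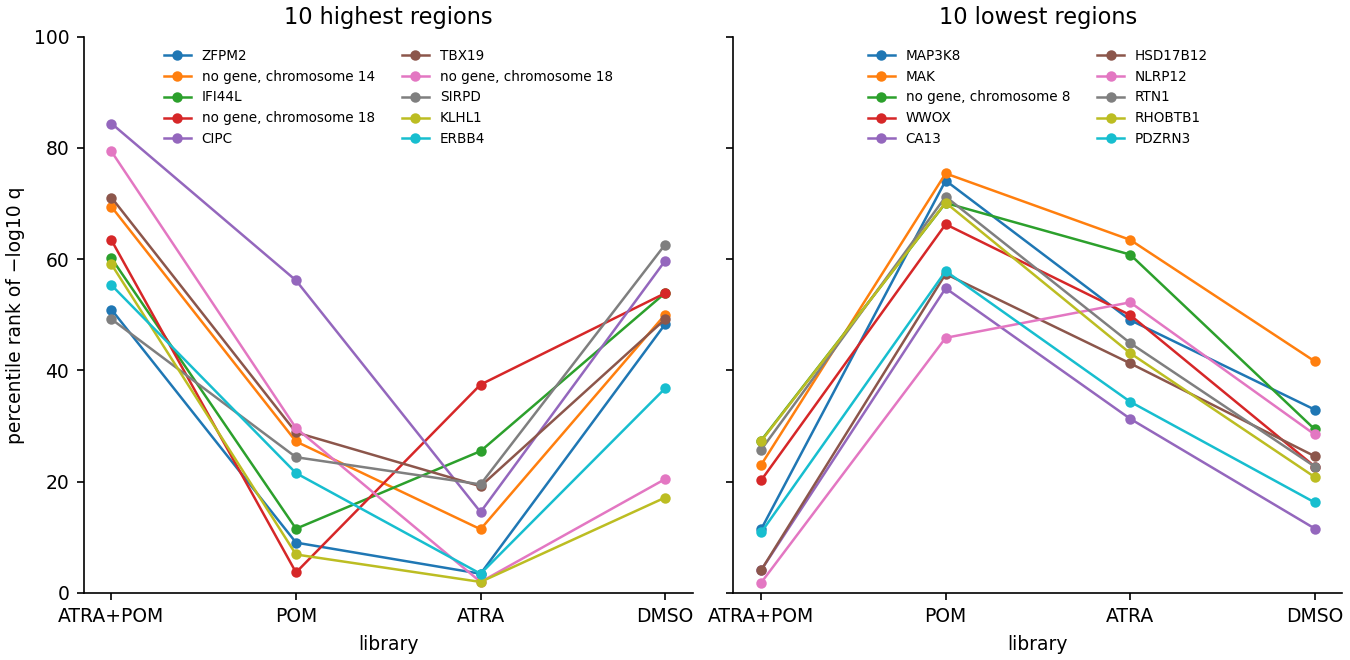
Percentile rank of the authors' −log10 q among shared regions (vertical axis) in each library (horizontal axis) for the 10 highest regions on the left and the 10 lowest on the right, 1 line a region. Every left line is higher after ATRA+POM than after either agent alone, and the right lines peak after POM or, in NLRP12, after ATRA, and are lowest after ATRA+POM except in RTN1 and RHOBTB1, where DMSO is lowest.

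ATRA+POM was the highest-ranked library in 357 of the 500 highest regions (71.4%, 95% Wilson interval 67.3 to 75.2%), against 25.6% of all shared regions, and DMSO in 134 (26.8%), against 22.3%. It stood more than 10 points above every other library in 242 of them (48.4%), against 8.27% of all shared regions. In 163 regions (32.6%, against 1.31% of all shared regions) both agents alone lay more than 10 points below DMSO while the combination did not. In 38 (7.60%) both agents alone lay within 10 points of DMSO, against 34.8% of all shared regions. In the 500 lowest regions ATRA+POM was the lowest-ranked library in 358 (71.6%, 67.5 to 75.4%), against 27.6% of all shared regions, and DMSO in 136 (27.2%), against 21.9%. It stood more than 10 points below every other library in 248 (49.6%), against 9.50%. Both agents alone lay more than 10 points above DMSO, and the combination did not, in 213 of the lowest regions (42.6%, against 1.56%). They lay within 10 points of DMSO in 62 (12.4%). The rule fixes much of these counts, because a high score needs ATRA+POM and DMSO to be high or the single agents to be low.

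**Figure D2:**
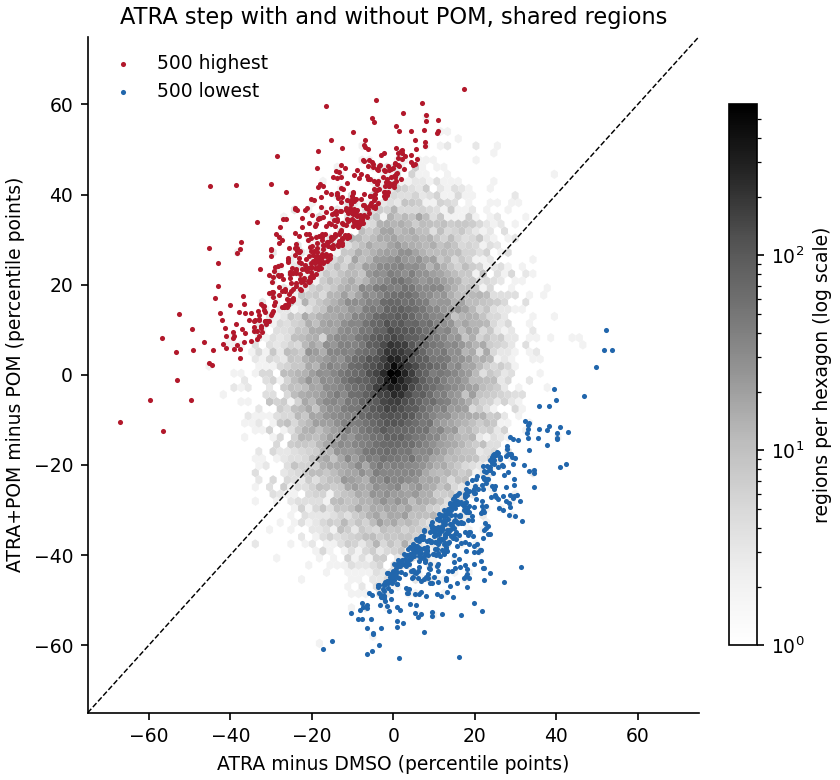
Step of ATRA without POM (ATRA minus DMSO, horizontal axis) against its step with POM (ATRA+POM minus POM, vertical axis), both in percentile points, for 42930 shared regions in grey, with the 500 highest in red and the 500 lowest in blue; the dashed line marks no interaction. The members lie along the edges of a single cloud, beyond 41.2 and -42.0 points, and form no group apart from it.

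The ATRA step had a median of 31.3 points with POM and -17.3 without it in the highest regions, and of -36.1 with POM and 13.1 without it in the lowest. Over all shared regions its interquartile range ran from -8.32 to 8.42 points between ATRA+POM and POM and from -4.97 to 5.22 points between ATRA and DMSO. The wider spread was in the pair with the shallower libraries. Regions just inside the limits were much like those just outside. At the upper limit VRK2, a kinase gene, scored 41.20 (42, 17, 14 and 30 reads after ATRA+POM, after POM, after ATRA and in DMSO) and was inside, and TUNAR scored 41.17 (92, 36, 43 and 91 reads) and was outside. At the lower limit ZNF423, a zinc finger gene, scored -41.97 (15, 18, 32 and 33 reads) and was inside, and CALD1, the caldesmon gene, scored -41.96 (17, 21, 23 and 26 reads) and was outside.

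Depth limits nearly every member. Over all shared regions the SD of the log2 pileup interaction was 0.56, and counting error of 4 independent pileups gives 0.53, which is 90.9% of the variance. In the 5262 regions whose lowest pileup was under 10 reads, which include 110 of the highest and 10 of the lowest, counting error gives 0.80, more than the observed SD of 0.66. Those regions raise the share over all shared regions. Among the 15735 regions with at least 30 reads at the summit in every library, the SD was 0.43, counting error gives 0.32, and the share was 55.9%. Only 26 of the 500 highest and 74 of the 500 lowest regions belonged to these deeper regions, which made up 36.7% of all shared regions. The median of the lowest pileup among the 4 libraries was 13 reads in the highest, 20 in the lowest and 22 in the other shared regions. A log2 interaction of at least 1 was found in 483 of the 500 highest regions, where 3.86% of all shared regions had one, and of at most -1 in 480 of the 500 lowest, against 3.62%. The 95% counting interval excluded 0 in 9.56% of all shared regions. It lay above 0 in 436 of the highest regions, against 4.47% of all shared regions, and below 0 in 470 of the lowest, against 5.1%. The members were picked for these values, so nothing is read from the counts, and 64 of the highest and 30 of the lowest regions did not clear their own counting error.

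**Figure D3:**
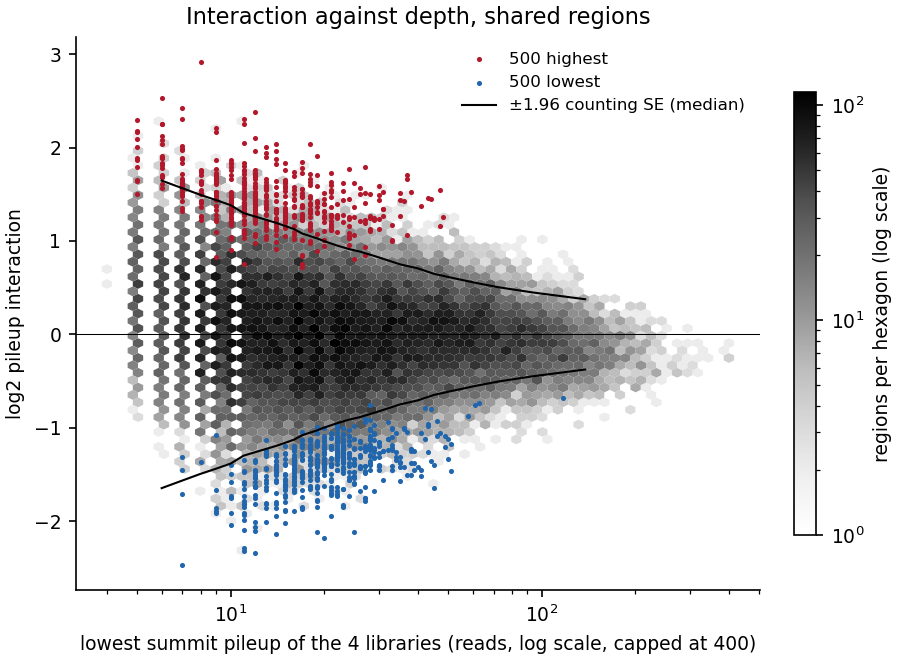
Log2 pileup interaction (vertical axis) against the lowest summit pileup among the 4 libraries (horizontal axis, log scale) for all shared regions in grey, the 500 highest in red and the 500 lowest in blue; the lines show the median 95% counting interval around 0. The cloud narrows as depth grows, and the members sit around or beyond the lines, mostly under 30 reads.

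Among regions with at least 30 reads in every library, those with the highest scores after CIPC were at the start of YPEL3 (60.7 points) and of MED13L (56.6 points), a gene of the Mediator complex. In YPEL3 the pileup was 87 reads after ATRA+POM, 36 after POM, 86 after ATRA and 200 in DMSO. In MED13L it was 54, 37, 52 and 243 reads. DMSO ranked highest in both, at 73.5 and 89.1, against 65.4 and 48.9 after ATRA+POM. In MED13L DMSO lay farthest from the other libraries, and in YPEL3 ATRA did, at rank 29.8 against 48.4 after POM. IGFBP4, which encodes an insulin-like growth factor binding protein, and MREG also had DMSO highest. XRN1, an exoribonuclease gene (88, 30, 53 and 89 reads), CLNK, an adaptor gene of immune cells (113, 38, 35 and 70 reads), CDYL, a chromodomain gene, and GAS1 had ATRA+POM highest. In CLNK the ranks were 86.4 after ATRA+POM, 62.3 after POM, 22.1 after ATRA and 50.5 in DMSO. DPYSL2, at 52.8 points, completes these 10 regions, with DMSO at rank 67.7 and ATRA+POM at 58.4. Summits lay up to 1522 bp apart in GAS1 and 807 bp apart in DPYSL2, so the ranks there do not all describe the same point.

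The deeper regions with the lowest scores after MAP3K8 included LDB1 and TENT5C, a poly(A) polymerase gene that is recurrently mutated in myeloma. At LDB1, which encodes an adaptor of LIM domain transcription factors, the pileup was 49 reads after ATRA+POM, 50 after POM, 146 after ATRA and 135 in DMSO (-61.4 points, log2 interaction -1.20 ± 0.34). At the start of TENT5C it was 36, 34, 106 and 82 reads (-59.1 points, log2 interaction -1.35 ± 0.41), with ranks of 21.0 after ATRA+POM, 56.2 after POM, 69.3 after ATRA and 45.5 in DMSO. The combination ranked lowest at both. S100A9, which encodes a subunit of the calprotectin of myeloid cells, had a region 2.16 kb away with 33, 53, 100 and 126 reads. Others lay inside TAF10, a subunit of the general factor TFIID, TNN, a tenascin gene, and TSPAN11, and 4.23 kb from RPS21, a ribosomal protein gene. Regions on chromosome 8 (128269279 to 128269877) and chromosome 16 (79770327 to 79771086) had no gene within 100 kb.

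The share of members at a gene boundary depended on rank and depth. A summit within 1 kb of a boundary of a protein-coding gene was found in 41 of the 500 highest regions (8.20%, 6.10 to 10.9%) and 39 of the 500 lowest (7.80%, 5.76 to 10.5%), against 22.6% (22.2 to 23.0%) of the other shared regions. Ranks are bounded, and a region near the top of every library cannot score high. The highest of 4 equal classes by mean rank, which begins at 72.1, held 1 highest and 2 lowest regions. In that class 58.0% of the other regions lay at a boundary. Why so few members came from it, by the bound or by depth, was not tested. In the lowest class of mean rank the order was the other way, with 7.38% (3.93 to 13.4%) of 122 highest and 6.42% (3.15 to 12.7%) of 109 lowest regions at a boundary, against 4.74% (4.35 to 5.17%) of the other regions. In the second-lowest class of mean rank, which holds 241 highest and 271 lowest regions, the shares were 5.39% (3.18 to 9.01%), 5.17% (3.10 to 8.48%) and 7.79% (7.28 to 8.32%) in the highest, the lowest and the other regions. In the class above it they were 13.2%, 15.3% and 18.5%. When only regions with at least 30 reads in every library were ranked, the shares at a boundary were 48.6% (44.2 to 53.0%) in the highest and 29.6% (25.8 to 33.7%) in the lowest regions, against 44.8% (44.0 to 45.6%) of all 15735.

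No protein-coding gene lay within 100 kb of 117 highest regions (23.4%, 19.9 to 27.3%), against 66 lowest (13.2%, 10.5 to 16.4%) and 14.5% of the other shared regions. In the second-lowest class of mean rank these shares were 24.1% (19.1 to 29.8%), 11.4% (8.18 to 15.8%) and 17.9% (17.2 to 18.6%). The median number of protein-coding genes within 500 kb was 5 for the highest, 7 for the lowest and 8 for the other regions. Peaks of the lowest regions were narrower, with a median width of 446.5 bp after ATRA+POM, 303 bp after POM, 596.5 bp after ATRA and 547.5 bp in DMSO, against 691, 463, 764 and 778 bp in the other shared regions. All summits lay within 250 bp in 94.2% of the lowest and 76.2% of the highest regions, against 84.5% of the others, so more of the highest scores compare different points of a region. The part of width and summit distance in the scores was not tested.

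**Figure D4:**
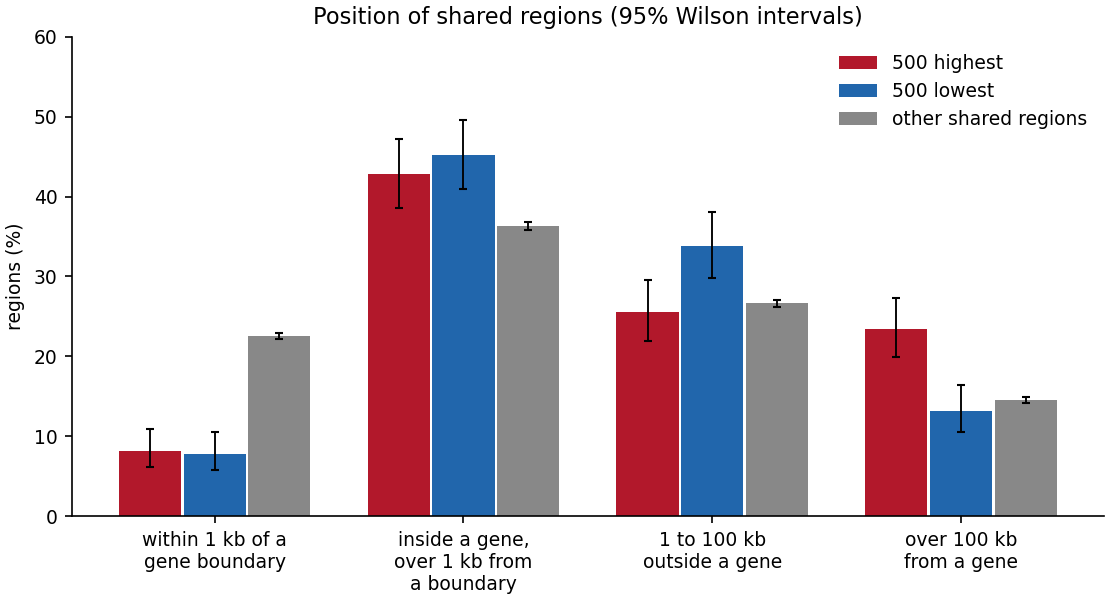
Share of regions (vertical axis, %) in 4 classes of position relative to protein-coding genes (horizontal axis) for the 500 highest, the 500 lowest and the other shared regions, with 95% Wilson intervals as error bars. Both member sets have 7.80 to 8.20% at a gene boundary against 22.6% of the others, and the highest regions have 23.4% over 100 kb from a gene.

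Which library was extreme in a member is part of what chose it, and the shares by position are given beside those of the other shared regions. Of the 41 highest regions at a gene boundary, DMSO was the highest-ranked library in 28 (68.3%, 53.0 to 80.4%) and ATRA+POM in 10 (24.4%, 13.8 to 39.3%). In the other shared regions at a boundary these shares were 33.0% for DMSO and 14.9% for ATRA+POM. Of the 459 farther away, ATRA+POM was highest in 347 (75.6%, 71.5 to 79.3%) and DMSO in 106 (23.1%, 19.5 to 27.2%), against 28.4% and 19.4% of the other regions. Of the 117 without a gene within 100 kb ATRA+POM was highest in 105 (89.7%, 82.9 to 94.0%), against 41.7%. In the other shared regions too, DMSO was more often highest at boundaries than farther away, and ATRA+POM more often far from genes. Nothing particular to the members is read from this trend. PDXK, the pyridoxal kinase gene, and SPHK1, a sphingosine kinase gene, picked out after their values were seen, had regions that span their promoter windows and were highest in DMSO. In PDXK the pileup was 59 reads after ATRA+POM, 28 after POM, 84 after ATRA and 235 in DMSO. In SPHK1 it was 48, 17, 85 and 184 reads. PLCB3, a phospholipase C gene, had 43, 19, 52 and 128 reads, and its ranks of 44.1 after ATRA+POM and 45.7 in DMSO were nearly equal, with summits up to 967 bp apart.

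Among the lowest regions ATRA+POM ranked lowest in 34 of 39 at a boundary (87.2%, 73.3 to 94.4%), against 34.5% of the other shared regions there. It did so in 324 of 461 farther away (70.3%, 66.0 to 74.3%), against 25.4%, and in 37 of 66 without a gene within 100 kb (56.1%, 44.1 to 67.4%), against 14.0%. The share of ATRA+POM fell with distance from genes in the other regions too. ATP13A2, which encodes a lysosomal polyamine transporter, had 22 reads after ATRA+POM, 33 after POM, 95 after ATRA and 96 in DMSO at its start. The region over the promoter window of STOML1, of the stomatin family, whose summit lay 2.35 kb from the gene boundary, had 28, 41, 170 and 211 reads, and its rank was 1.81 after ATRA+POM against 54.3, 80.4 and 81.5 after POM, after ATRA and in DMSO. ZC3H12A, whose product degrades inflammatory messenger RNAs, had 44, 51, 170 and 236 reads. STOML1 and ZC3H12A were also picked out after their values were seen.

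**Figure D5:**
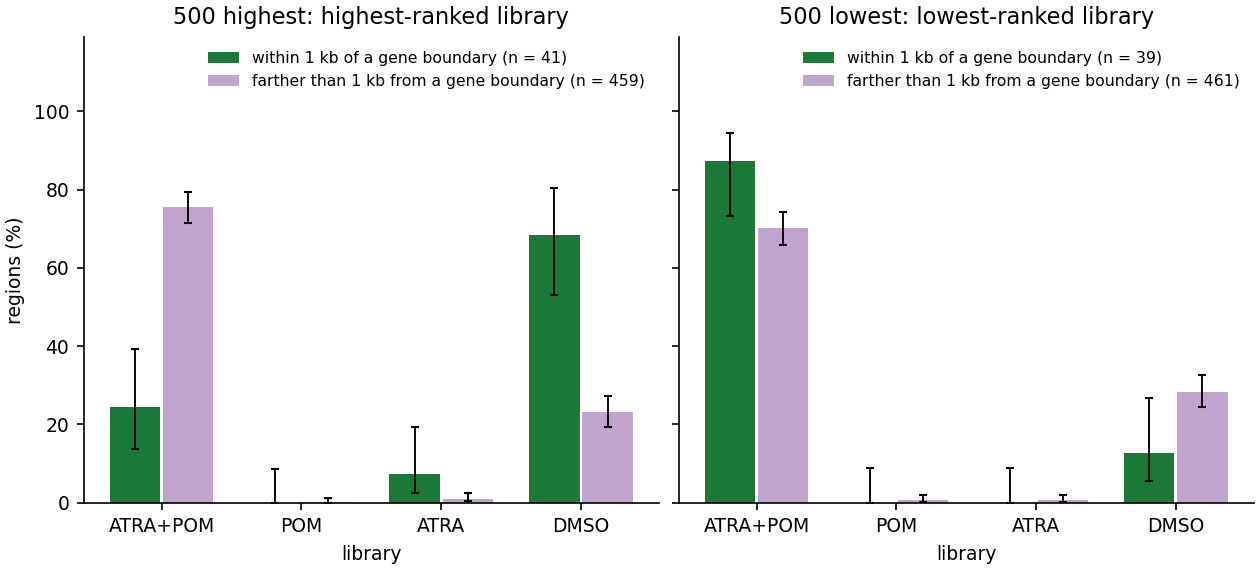
Share of regions (vertical axis, %) in which each library (horizontal axis) ranked highest, for the 500 highest regions on the left, or lowest, for the 500 lowest regions on the right, split by distance from a gene boundary, with 95% Wilson intervals. In the left panel DMSO leads at boundaries with 68.3% and ATRA+POM leads elsewhere with 75.6%, and in the right panel ATRA+POM leads in both classes. The libraries chose the members. In the other shared regions, not drawn, other libraries lead. Highest at boundaries are ATRA in 33.7% and DMSO in 33.0%, and elsewhere POM in 29.1% and ATRA+POM in 28.4%. Lowest at boundaries are POM in 39.1% and ATRA+POM in 34.5%, and elsewhere ATRA in 25.6% and ATRA+POM in 25.4%.

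Letters of 8 known motifs were counted, on both strands, in the 38 promoter windows spanned by the highest regions and the 28 spanned by the lowest. They come from 35 and 27 regions, because some regions span the windows of more than 1 gene. Such windows can share sequence, and the Wilson intervals treat them as independent. Shares are set beside the 8340 promoters spanned by any shared region, from which these windows come, and then all 15811 promoters of the table. The nuclear receptor half-site AGGTCA was in 6 windows of the highest regions (15.8%, 7.44 to 30.4%) and 1 of the lowest (3.57%, 0.633 to 17.7%), against 9.33% and 11.7%. Its direct repeat, AGGTCA, any 5 bases and AGGTCA, which overlaps the half-site search, was in none of the 15811. Absent from every promoter, this exact pattern cannot tell the sets apart. Nothing is read from it about repeats with other letters. The AP-1 site TGANTCA was in 4 windows of the highest (10.5%, 4.17 to 24.1%) and 2 of the lowest regions (7.14%, 1.98 to 22.6%), against 3.71% and 5.76%. An Ikaros core, TGGGAA, was in 2 windows of the highest (5.26%, 1.46 to 17.3%) and 6 of the lowest (21.4%, 10.2 to 39.5%), against 21.8% and 22.7%. The ETS core CCGGAA was in 7 windows of the highest (18.4%, 9.22 to 33.4%) and 5 of the lowest (17.9%, 7.88 to 35.6%), against 33.4% and 22.8%. The response element core was in 1 window of each set, which is IFI44L among the highest, against 2.57% and 3.18%. CCAAT was in 26.3% of the windows of the highest (15.0 to 42.0%) and 46.4% of those of the lowest regions (29.5 to 64.2%), against 38.3% and 36.3%. GGGCGG was in 60.5% (44.7 to 74.4%) and 85.7% (68.5 to 94.3%), against 72.2% and 58.5%. Beside promoters spanned by shared regions, the intervals of the highest set for TGANTCA and TGGGAA were the ones that did not contain the share, on 4 and 2 windows. They were noticed among 8 motifs in both sets after the values were seen. With so many intervals some can miss the share by chance, and nothing is read from them.

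Few genes held more than 1 member. The 383 highest regions with a gene within 100 kb were spread over 372 genes, and the 434 lowest over 423. GLT1D1, a glycosyltransferase gene, led with 3 of the highest regions, scoring 45.2 to 46.8. At its strongest the pileup was 110 reads after ATRA+POM, 53 after POM, 24 after ATRA and 82 in DMSO, and at the others it was 65, 20, 35 and 64 and 25, 9, 35 and 80 reads in these libraries. Those regions therefore do not share a pattern, since ATRA was low in the first and DMSO was high in the last. TENT4A, a poly(A) polymerase gene, PCDH15, a cadherin of the inner ear, LAMA3, a laminin subunit gene, and KBTBD8 had 2 highest regions each. COG2, of the Golgi transport complex, LYN, a SRC family kinase of B lineage cells, IGFL2, ABCA1, the cholesterol exporter, and ZBTB7C had 2 lowest regions each. At LYN the pileup was 17 reads after ATRA+POM, 28 after POM, 57 after ATRA and 54 in DMSO in the stronger region (-64.5 points), and 51, 55, 67 and 67 in the other (-42.4 points).

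Sets of pathway genes held few members, and their shares can be read beside 1.04% highest and 1.18% lowest among the 36661 shared regions with a gene within 100 kb. Of 72 shared regions near 21 genes of retinoid receptors and retinoid handling, 1 was among the highest and 0 were among the lowest. It lay inside RARB, the gene of retinoic acid receptor beta, at chromosome 3, 25404334 to 25405411. The pileup was 40 reads after ATRA+POM, 14 after POM, 16 after ATRA and 26 in DMSO, and the log2 interaction of 1.15 had a counting SE of 0.64, so it did not clear its counting error. RARB had 14 shared regions with a median interaction of -0.68 points, and the lowest of them scored -17.3. For the cereblon ligase and its drug-recruited substrates, 0 of 32 regions were members. The 7 shared regions of IKZF1 had a median of 1.73 and those of IKZF3, numbering 4, of 11.1 points, and in IKZF3 the lowest, at -41.9, lay just outside the limit. The log2 interaction of that region, -0.75 with a counting SE of 0.42, did not clear its counting error. Its summits lay up to 1116 bp apart. A region 21.4 kb from IKZF1 scored 34.4 points, with a log2 interaction of 1.19 and a counting SE of 0.47. Another, 3.32 kb from IKZF3, scored 19.5 points, with a log2 interaction of 0.70 and a counting SE of 0.27. Both were picked out after their values were seen and cleared their counting error. The remaining shared regions of IKZF1 and IKZF3 did not.

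Interferon response genes had 2 of 48 regions among the highest and 0 among the lowest. Beside IFI44L this was a region at the boundary of TRIM22, an antiviral gene (chromosome 11, 5689617 to 5690049), with 59 reads after ATRA+POM, 25 after POM, 22 after ATRA and 46 in DMSO, a log2 interaction of 1.24 and a counting SE of 0.51. The median interaction over the 48 regions was 0.17 points. FAS, a death receptor gene, had a highest region 57.3 kb away with 24, 6, 15 and 34 reads, the only member of 69 regions of BCL2 family and death receptor genes. MAFF, a small MAF factor gene, had one at its boundary with 73, 18, 133 and 153 reads, in which POM alone was low, the only member of 77 AP-1 and NF-kB regions.

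CDKN1A, the gene of the cell cycle inhibitor p21, had a lowest region 9.18 kb away at -53.8 points. Its pileup was 23 reads after ATRA+POM, 30 after POM, 77 after ATRA and 86 in DMSO, with ranks of 16.2, 68.4, 66.1 and 64.5, so the combination was low and the other libraries were alike. This was the only member among 59 cell cycle regions. EIF2AK3, the gene of the stress kinase PERK, held a lowest region with 18, 21, 51 and 49 reads, the only member of 57 unfolded protein response regions. Among 103 regions of B cell transcription factors the only member was in TCF4 (-46.0 points), and among 74 plasma cell regions it was 43.6 kb from CD28, a costimulatory receptor gene (-43.8 points). Chromatin regulators had 3 highest and 1 lowest of 91 regions, in or near ARID1B, KMT2C and KMT2D and at the start of SUZ12. Those of KMT2C and SUZ12 are uncertain because copies of these genes elsewhere in the genome can share reads. Long adhesion and synaptic genes had 5 highest of 297 regions, 2 of them in PCDH15 and the others in PCDH7, CDH8 and CNTNAP5, and 1 lowest, near CDH7. The t(4;14) and MAP kinase feedback genes had 0 of 52 and myeloid differentiation genes 0 of 29.

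The regions in which the combination stood farthest beyond every other library were picked out after their values were seen. The widest margin above was 60.9 points and lay over 100 kb from any protein-coding gene (chromosome 1, 82990998 to 82992245). It had 75 reads after ATRA+POM, 11 after POM, 15 after ATRA and 19 in DMSO, a log2 interaction of 2.05 and a counting SE of 0.68. NDP, the gene of the Wnt pathway ligand norrin, had a region 82.4 kb away with 53, 10, 11 and 11 reads, whose log2 interaction of 1.35 had a counting SE of 0.79. The widest margin below was 55.2 points inside GPRC5A, an orphan receptor gene known to be induced by retinoic acid, at chromosome 12, 12915930 to 12916824. It had 26 reads after ATRA+POM, 37 after POM, 81 after ATRA and 109 in DMSO, with ranks of 17.2, 74.6, 72.5 and 77.4. The single agents were close to vehicle there, and the log2 interaction was -1.14 ± 0.43 (counting SE).

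Neighbouring regions that were not members had medians well inside the quartiles of all regions that are not members. Members were left out of the neighbours, so a neighbour that followed strongly enough to be picked cannot show in these medians. The 176 other shared regions within 10 kb of one of the 500 highest had a median interaction of -1.73 points, and the 717 at 10 to 50 kb had 0.71. For the 500 lowest the 195 neighbours within 10 kb had a median of 0.15 points and the 782 at 10 to 50 kb had -0.56. All shared regions that are not members had a median of 0.02 and quartiles of -9.53 and 9.67. Adjacent members within 100 kb of each other formed 37 pairs, of which 11 joined highest regions, 14 joined lowest regions and 12 joined 1 of each.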

How the data were processed

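Each of 4 groups had 1 ATAC-seq library, grouped by the treatment label. The submitters' processing notes name the build hg38; aligner, peak caller, settings and read shifting: not given in the sources used here. The authors deposited peak and summit lists called per library, with a score (10 times −log10 q), a fold (ratio of summit pileup to background) and −log10 p and q. No scaling between libraries is recorded.

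Peaks on chromosomes 1 to 22 and X (5 left out) that overlapped by 1 bp were merged, and the highest −log10 q of a library in a region was ranked among shared regions. Pileup (reads stacked at the summit) and background were recovered from fold and p under a Poisson tail, an assumption about the caller, within 0.01 log10 for 100% of peaks. Counting SE is the square root of the summed reciprocal pileups, on the log2 scale. It covers counting error only, treating reads as independent. The Wilson intervals (95%) treat regions or promoter windows as independent draws. Neither covers the spread between cultures. Positions use the median summit and RefSeq genes of GRCh38.p14; its promoter table holds no chromosome 8 here. Python 3.11.15, pandas 2.3.3 and scipy 1.17.1 were used, with a check on simulated data.

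The members, lists and rules were chosen with earlier results of these data known. Named were the 10 highest and 10 lowest regions, the same with 30 reads or more in every library, the 5 genes with most members per direction, list genes with a member, and regions at the limits. The number of regions kept, the ranked value, depth, peak number and summit distance were varied.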

Additional observations from a re-analysis of the deposited data

How the results depend on the processing

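No paired analysis was possible because each group has 1 library and leaving one out removes the group. Under the 7 alternatives the picked regions changed, while the sign of their median interaction is fixed by how they are picked. Of 500 highest and 500 lowest regions, ranking among all peaks of each list kept 216 and 250, ranking the deposited fold 279 and 324, centred log2 pileup 305 and 306, regions with exactly 1 peak per library 473 and 485, and regions with all summits within 250 bp 374 and 450. The requirement of 30 reads in every library kept 21 and 34, out of the 26 and 74 members that meet it. Exactly 1 peak per library was met by 474 and 485 members, and close summits by 381 and 471. Only members that meet a requirement can be kept, so the counts under these requirements do not measure how stable the score is.

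The median log2 interaction of the highest regions (1.43) was 1.55 with 250 regions per direction, 1.34 with close summits, 1.52 with log2 pileup, 1.31 with the fold and 0.77 with 30 reads. That of the lowest (-1.38) was -1.49, -1.33, -1.46, -1.25 and -0.96 under these, and -1.42 with ranks among all peaks. ATRA+POM ranked highest in 65.6% of highest regions with log2 pileup, 58.6% with the fold and 50% with 30 reads, and lowest in 54%, with log2 pileup, 65.4%, with 30 reads, and 62%, with ranks among all peaks, of lowest regions. The share at a gene boundary was 5.6% with the fold and 48.6% with 30 reads for the highest, and 14% and 29.6% for the lowest, which had 5.6% with 250 regions. The cause of these shifts was not tested.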

Other observations

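Members were spread over all chromosomes, with 1.16% of the shared regions in each direction by construction. Chromosome 18 had 23 of its 1014 shared regions among the highest (2.27%) and 14 among the lowest (1.38%). Gene-dense chromosome 19 had 6 (0.40%) and 8 (0.54%) of 1494. On chromosome 14, 17 of 1132 regions were among the highest (1.50%) and 7 among the lowest (0.62%). These chromosomes were picked out of all chromosomes after their shares were seen, and nothing is read from them. IRF4, the plasma cell transcription factor, had 4 shared regions scoring -4.95 to 25.4 points, and CD38 had 2, at 4.00 and 23.6, none of them a member. Of 14521 genes with a shared region within 100 kb, 372 had a highest and 423 a lowest region. Genes with a member of both directions numbered 10, which is 2.69% of the genes of the highest and 2.36% of those of the lowest regions. Few genes had a member of either direction, so a small overlap is what unrelated sets would also give, and nothing is read from it.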
